A study of Homo sapiens with 48 samples.

Results

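The interferon response genes described here are a list of 45 genes, chosen by name, that cells are known to switch on or use when they sense virus or interferon. All 45 had at least 1 probe under their symbol on the array, 80 probes in all, of 47323 probes on the array. A probe was counted as detected on an array at a detection p under 0.01, and 42 of the 45 genes had a probe detected on at least 2 of the 48 arrays and were tested, among 16438 genes tested in all. IFI16 and TRIM22 were detected on no array and BST2 on 1 array of 22Rv1, and these 3 were not tested.

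The arrays carried RNA of PC-3 and 22Rv1, established human prostate cancer lines, held for 24 h at 37 °C either in a hypoxia chamber or in normoxia, 95% air. The chamber ran at 6 oxygen levels (0% O2, then 0.2%, 0.5%, 1%, 2% and, as the mildest, 5%), and each level had normoxia controls of its own. The labels give the source of PC-3 as a bone metastasis, and 22Rv1 is known as a line grown from a human prostate tumour xenograft. The labels name no transgene, drug or added interferon. Each line, level and condition had 2 replicates, so that a line had 12 hypoxia and 12 normoxia arrays. The labels do not say whether replicates are separate cultures. The p-values therefore reflect only the scatter among the arrays at hand, which may be technical, and the number of arrays limits the precision.

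Type I and type III interferons bind cell surface receptors and act through the kinases JAK1 and TYK2 to form a complex of STAT proteins with IRF9. This complex binds interferon-stimulated response elements, short GAAA repeats, in the promoters of its target genes. Type II interferon acts through a STAT dimer and induces factors such as IRF1. The products include RNA sensors, RNA-degrading and RNA-binding proteins, membrane proteins that block viral entry, the ubiquitin-like protein ISG15 with its conjugating enzymes, and the immunoproteasome subunits that shape peptides for presentation to T cells. Many tumour lines hold a low basal level of these genes without added interferon. Hypoxia acts on transcription mainly through hypoxia-inducible factors, which bind sites with the core ACGTG.

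Between 13750 and 16494 probes were detected per array (median 15405). The 2 deposited tables name 46 of the 48 arrays alike, judged by which columns hold matching values. For replicate 2 of 22Rv1 at 0.2% O2 they swap the names of hypoxia and normoxia. The rank correlation of each of these 2 columns with its namesake was 0.861. Names follow the intensity table here, and results at 0.2% O2 in 22Rv1 that change with the other labels, or without both arrays, are given with those values. The line markers stood with the labels: KLK2 was detected on 24 of 24 arrays of 22Rv1 and 0 of 24 of PC-3, and the epithelial genes EPCAM, KRT8 and KRT18 on all arrays of both. KLK3 was detected on no array. Of the immune markers PTPRC and CD3D were detected on no array, while CD14 was detected on 10 of 24 arrays in each line and LYZ on 3 arrays of each. Of the fibroblast markers DCN was detected on no array, LUM on 0 arrays of 22Rv1 and 16 of PC-3, and COL1A1 on 6 arrays of 22Rv1 and 21 of PC-3. The part of these marker genes in the results was not tested.

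Promoter windows are shown for 5 members that the results turn on, of which 3 rose and 2 fell in hypoxia. A link between motifs and the direction of change was not tested. Each runs 250 bases before to 50 bases after a start that RefSeq's table lists for the gene in GRCh38.p14. For STAT2, IFI6 and HERC5 that start is the outer end of the annotated gene, while for ISG20 it lies 3384 bases and for PSMB8 632 bases inside the annotated gene. Each window is printed 5′ to 3′ in the direction of transcription. Capitals mark matches, read on either strand, to ACGTG and to the double GAAA motif, in which GAAA is repeated after a gap of any 2 bases, and the motifs share no base in these windows.
ISG20, chr15:88638766-88639065, plus strand: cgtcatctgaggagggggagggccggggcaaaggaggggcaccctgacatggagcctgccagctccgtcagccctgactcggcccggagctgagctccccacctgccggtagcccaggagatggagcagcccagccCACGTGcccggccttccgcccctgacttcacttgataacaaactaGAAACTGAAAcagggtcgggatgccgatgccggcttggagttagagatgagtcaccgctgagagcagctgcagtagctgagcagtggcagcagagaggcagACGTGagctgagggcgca
STAT2, chr12:56360058-56360357, minus strand: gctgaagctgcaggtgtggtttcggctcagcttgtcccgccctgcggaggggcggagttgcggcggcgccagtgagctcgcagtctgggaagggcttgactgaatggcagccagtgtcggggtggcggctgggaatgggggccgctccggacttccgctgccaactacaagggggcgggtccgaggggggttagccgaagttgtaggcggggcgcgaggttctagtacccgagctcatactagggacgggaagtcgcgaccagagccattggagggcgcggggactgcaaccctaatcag
IFI6, chr1:27672143-27672442, minus strand: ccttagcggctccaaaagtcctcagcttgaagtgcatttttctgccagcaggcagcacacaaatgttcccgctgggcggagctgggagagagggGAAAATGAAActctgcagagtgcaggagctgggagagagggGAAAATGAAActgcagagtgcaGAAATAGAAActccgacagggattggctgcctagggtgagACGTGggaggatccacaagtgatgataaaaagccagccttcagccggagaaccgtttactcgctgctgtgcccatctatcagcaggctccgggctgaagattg
HERC5, chr4:88456869-88457168, plus strand: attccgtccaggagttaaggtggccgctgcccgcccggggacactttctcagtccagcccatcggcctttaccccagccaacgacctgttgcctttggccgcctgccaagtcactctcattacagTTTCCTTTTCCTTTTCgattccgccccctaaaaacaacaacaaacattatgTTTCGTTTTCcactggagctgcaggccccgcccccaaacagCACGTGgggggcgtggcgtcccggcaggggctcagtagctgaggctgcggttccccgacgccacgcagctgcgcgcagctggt
PSMB8, chr6:32843998-32844297, minus strand: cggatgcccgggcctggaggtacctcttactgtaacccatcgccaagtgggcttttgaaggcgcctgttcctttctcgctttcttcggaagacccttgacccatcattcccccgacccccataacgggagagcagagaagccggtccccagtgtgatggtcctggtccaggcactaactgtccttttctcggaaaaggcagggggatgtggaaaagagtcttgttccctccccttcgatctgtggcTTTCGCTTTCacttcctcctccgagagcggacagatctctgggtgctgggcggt

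The ISG20 window held 1 double GAAA motif, whose first base lay 69 bases before the start, and 3 ACGTG matches, of which a pair overlap as CACGTG. The IFI6 window held 3 double GAAA motifs and 1 ACGTG, and the HERC5 window held 3 double GAAA motifs, of which a pair overlap, and 2 overlapping ACGTG matches. The PSMB8 window held 1 double GAAA motif that begins 4 bases before the start and no ACGTG, and PSMB8 has a further window in the table, at the outer end of the gene. Of these 2 windows the one printed was picked by its motif matches, the double GAAA motif counting first. The STAT2 window held neither motif. RefSeq windows were at hand for 35 of the 45 members. At least 1 window with the double GAAA motif was present for 22 of these 35 genes (62.9%), against 4.38% of 27305 genes with a window, and with ACGTG for 11 of 35 (31.4%), against 24.87%. A match is a string of letters in this window and not a measured binding site.

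Several members lie beside each other, so that neighbours share a locus and partly their sequence. IFIT1, IFIT2, IFIT3 and IFIT5 lie within 119.0 kb at chr10:89302046-89420997, the 3 IFITM genes close together at chr11:307816-320860, and OAS1, OAS2 and OAS3 within 104.8 kb at chr12:112906962-113011723 (RefSeq, GRCh38.p14). HERC5 and HERC6 lie within 127.3 kb at chr4:88378852-88506163, and PSMB8 and PSMB9 within 19.1 kb at chr6:32840717-32859851. The IFITM transcripts are closely similar, so the values of IFITM1, IFITM2 and IFITM3 may share signal.

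How many of these genes each line expressed at all differed. On the probe used for each gene, which was its brightest, 16 of the 42 tested members were detected on all 24 arrays of 22Rv1 (38.1%, against 56.8% of all genes tested), and 29 on all 24 arrays of PC-3 (69%, against 58.6%). Members detected on no array numbered 13 in 22Rv1 (31%, against 6.4% of all genes) and 2 in PC-3 (4.76%, against 9.13%). A set of 8 members was on no 22Rv1 array and on all 24 of PC-3: the RNA-binding IFIT1, IFIT2 and IFIT3, the oligoadenylate synthetase OAS2, the ISG15-conjugating enzyme UBE2L6, the immunoproteasome subunit PSMB8, and IFI44 and IFI44L. DDX60, IFIT5, OASL, PML and IFI27 were on no 22Rv1 array and on 4 to 13 arrays of PC-3. In the opposite direction the ISG15 ligase HERC5 was detected on all 24 arrays of 22Rv1 and on 11 of PC-3. The ISG15 protease USP18 was detected on 9 arrays of 22Rv1 and none of PC-3. For 2 genes another probe read differently: a second UBE2L6 probe was detected on 7 arrays of 22Rv1, and a second PSMB9 probe on 2 arrays of PC-3, where the brighter one was on none. The 15 members on all 48 arrays included STAT2, IRF3, IRF7, IRF9, ISG15, ISG20, ADAR, EIF2AK2, MX1, IFITM2, IFITM3, IFI35 and all 3 PARP genes.

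In normoxia 36 of the 42 members differed between the lines. Of these 6 were higher in 22Rv1 (14.3%, against 39.3% of all genes tested) and 30 were lower in 22Rv1 (71.4%, against 32.5%). The median log2 difference, 22Rv1 minus PC-3, was -0.80 over the members and 0.05 over all genes. These counts include the 13 members on no 22Rv1 array, which passed the filter through PC-3 alone. Of the 24 members detected on at least 2 arrays of each line, 5 were higher in 22Rv1 (20.8%, against 40.4% of 12646 genes so detected) and 15 were lower in 22Rv1 (62.5%, against 34.1%), with a median difference of -0.49. All 13 tested effectors differed, 12 of them lower in 22Rv1, but only 6 of the 13 were detected on at least 2 arrays of 22Rv1. Of the 6 transcription factors 4 were lower in 22Rv1, and 5 of the 6 were so detected there. These counts by role thus include members that passed the filter through PC-3 and say less than the counts detected in both lines. The comparison was made in limma over all genes with Benjamini-Hochberg adjustment, and a call here means an adjusted p under 0.05. Levels are log2 normalized intensities, which cannot be compared between genes.

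UBE2L6 had a level of 4.48 to 5.09 (median 4.67) in 22Rv1, against 8.78 to 9.46 (median 9.11) in PC-3, n = 12 normoxia arrays each, as for every gene of this comparison. On this brighter probe, which no 22Rv1 array detected, UBE2L6 was at least 15.9-fold lower there. The second UBE2L6 probe, which some 22Rv1 arrays detected, was lower in 22Rv1 by a smaller log2 difference of -1.79. The bound therefore holds for the brighter probe alone. The deposited bead intensity of the brighter probe had a median of 103 in 22Rv1 and 677 in PC-3. PSMB8 was at 4.32 to 4.78 (median 4.46) in 22Rv1, against 7.91 to 8.46 (median 8.07) in PC-3, at least 7.83-fold lower in 22Rv1. IFIT1, a cap-binding protein that blocks viral translation, was at 4.32 to 4.64 (median 4.49) in 22Rv1, against 7.26 to 7.74 (median 7.51) in PC-3, at least 5.22-fold lower in 22Rv1. The lines did not overlap for any of these 3 genes. IFIT2 was at least 4.91-fold lower in 22Rv1, IFI44L at least 3.03-fold, IFI44 at least 2.97-fold, OAS2 at least 2.85-fold and IFIT3 at least 1.71-fold.

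Among members detected in both lines, IFI6, a small mitochondrial and endoplasmic reticulum protein of the antiviral response, had the widest gap. IFI6 was at 4.88 to 5.93 (median 5.55) in 22Rv1, against 9.03 to 10.06 (median 9.42) in PC-3, a difference of -3.90 ± 0.13 (SE). IFITM2, a membrane protein that restricts viral entry, was at 8.03 to 8.91 (median 8.57) in 22Rv1, against 11.97 to 12.32 (median 12.19) in PC-3, a difference of -3.59 ± 0.07. Neither gene overlapped between the lines. IFITM3 differed by -2.86 ± 0.08, and of the regulators IRF7 differed by -2.51 ± 0.08. IRF1 was called lower in 22Rv1 as well, detected there on 2 of 12 arrays and in PC-3 on all 12. IRF9, the DNA-binding partner of the STAT complex, differed by -1.97 ± 0.09 and STAT2 by -0.99 ± 0.07.

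The 6 members that were higher in 22Rv1 were led by HERC5, at 6.65 to 7.13 (median 6.80) in 22Rv1 and 4.53 to 5.57 (median 5.18) in PC-3, a difference of 1.69 ± 0.08. ISG20, an exonuclease that degrades single-stranded RNA, was at 8.81 to 9.30 (median 8.96) in 22Rv1 and 7.60 to 8.40 (median 8.02) in PC-3, a difference of 0.94 ± 0.11. The lines did not overlap for either gene. PARP9 differed by 0.93 ± 0.10, the RNA-editing enzyme ADAR by 0.75 ± 0.05 and ISG15 itself by 0.15 ± 0.05, while USP18 was at least 1.11-fold higher in 22Rv1. The call of ISG15 ended when quantile normalization was replaced by median centring (0.02, adjusted p = 0.88). IRF3, which is known to be present before any induction, differed by 0.00 ± 0.06 and was not called.

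**Figure D1:**
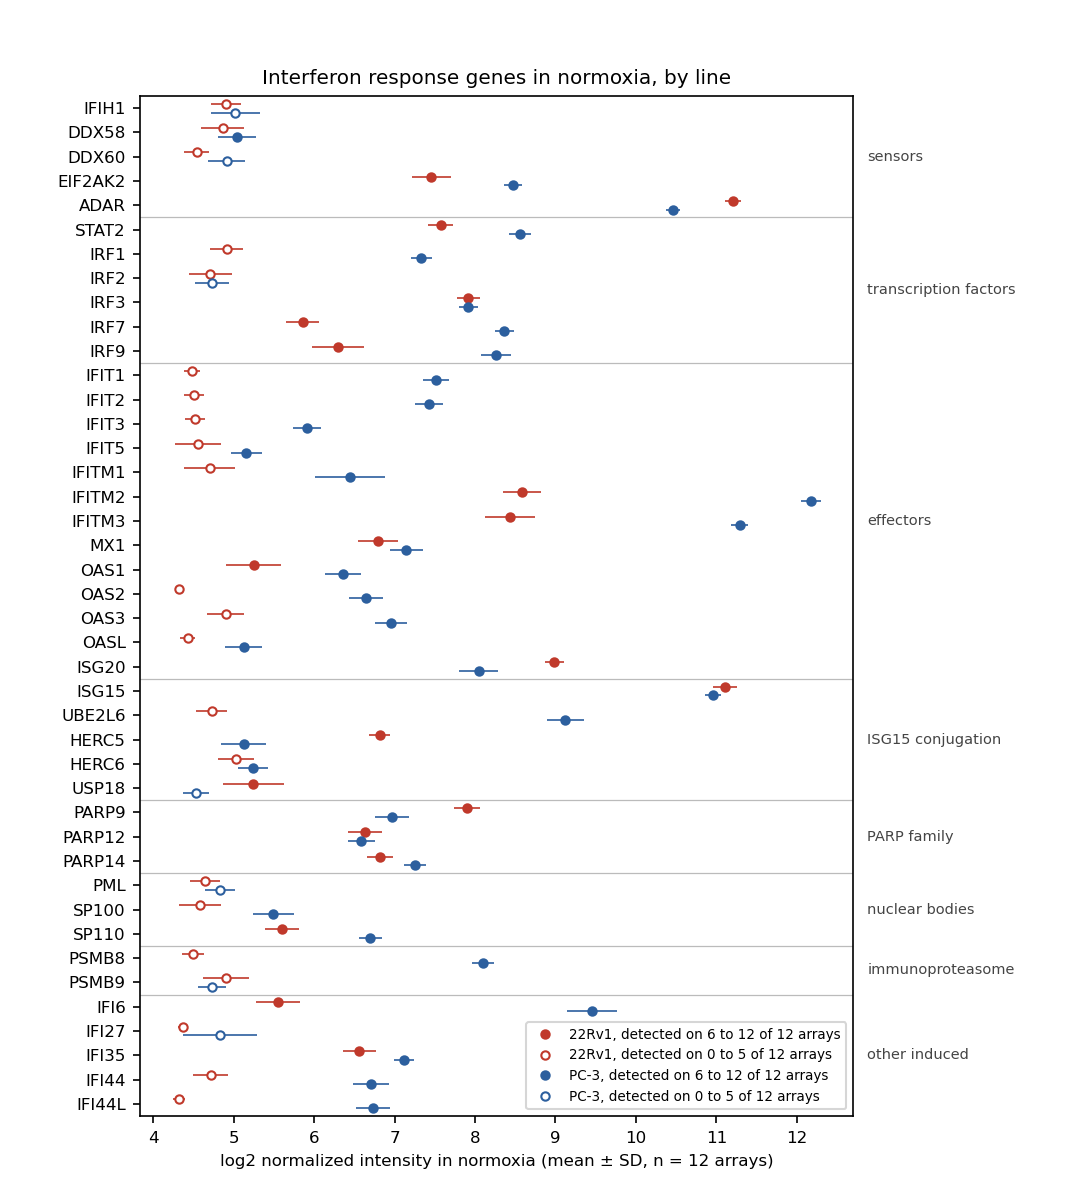
Mean log2 normalized intensity with SD of each tested member over the 12 normoxia arrays of 22Rv1 (red) and PC-3 (blue), grouped by role. Open circles mark a line where under 6 arrays detected the gene, and most effectors of 22Rv1 lie to the left of PC-3 while HERC5, ISG20, PARP9 and ADAR lie to the right.

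Hypoxia against normoxia, taken as the mean over the 6 levels, moved 17 members in 22Rv1 (40.5%, against 42.6% of all genes tested) and 20 in PC-3 (47.6%, against 24%). In 22Rv1 5 members rose (11.9%, against 19.8% of all genes tested) and 12 fell (28.6%, against 22.8%). In PC-3 3 members rose (7.14%, against 10.7%) and 17 fell (40.5%, against 13.3%). Only members that a line expresses could be measured there. Among the 26 detected on at least 2 arrays of 22Rv1 the same 5 and 12 are 19.2% and 46.2% (against 22% and 25.4% of genes so detected), and among the 40 so detected in PC-3 the same 3 and 17 are 7.5% and 42.5% (against 12.3% and 15.5%). The median change of the detected members was -0.17 in each line. The median log2 change over the 42 members was -0.07 in 22Rv1 and -0.16 in PC-3, with -0.01 over all genes in each line. ISG20, STAT2 and IRF9 rose in both lines. A further 7 members fell in both: HERC5, HERC6, IFI35, IFIH1, PARP9, PARP12 and PARP14. No member was called in opposite directions, and 18 of the 45 were not called in either line, among them the 3 that were not tested. Apart from ISG20, every called mean change was under 1 on the log2 scale in size. In bulk RNA a change in every cell cannot be told apart from a larger one in some of them.

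**Figure D2:**
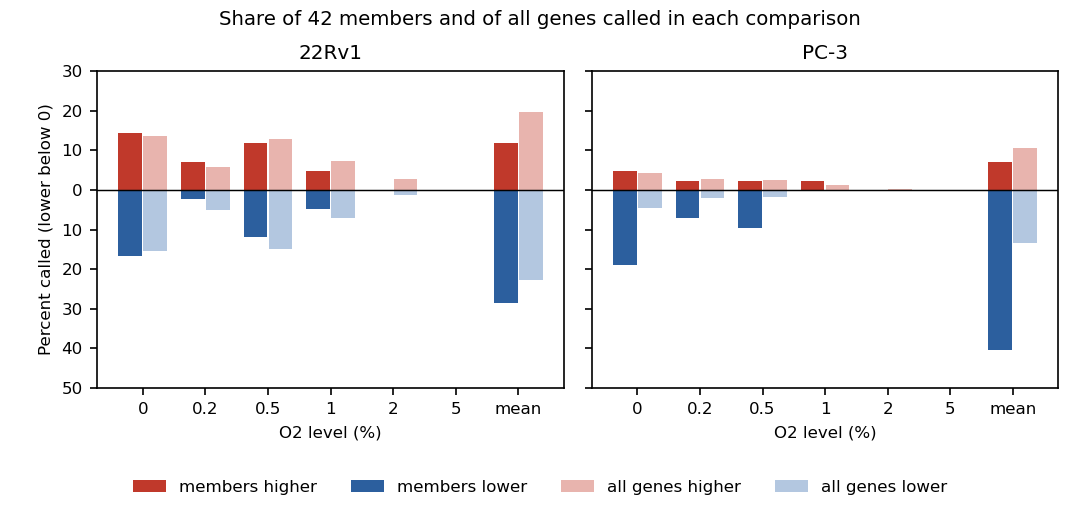
Percent of the 42 tested members (dark) and of all 16438 genes tested (pale) called higher (upward bars) or lower (downward bars) in hypoxia at each oxygen level and for the mean over levels, in 22Rv1 and PC-3. In PC-3 the members' share of lower genes at the mean was 40.5% beside 13.3%, and at 5% O2 no member was called in either line.

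The gene with the steepest rise in both lines was ISG20. In 22Rv1 hypoxia ISG20 stood at 11.40 and 11.38 at 0% O2, 10.35 and 9.81 at 0.2%, 10.78 and 10.31 at 0.5%, 10.23 and 10.15 at 1%, 9.87 and 9.71 at 2%, and 9.35 and 9.19 at 5%. The 12 normoxia arrays of 22Rv1 lay between 8.81 and 9.30 (median 8.96). All 12 pairs were higher in hypoxia, and 1 array at 5% O2 lay inside the normoxia range. The mean rise was 1.23 ± 0.11 (adjusted p = 5.6e-11), the levels being 10.21 ± 0.70 in hypoxia and 8.98 ± 0.12 in normoxia (SD, n = 12, here and below over all oxygen levels). The median bead intensity was 1113 in hypoxia and 575 in normoxia.

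In PC-3 hypoxia ISG20 stood at 10.05 and 9.88 at 0% O2, 9.97 and 10.20 at 0.2%, 10.26 and 9.85 at 0.5%, 9.21 and 9.51 at 1%, 8.34 and 9.52 at 2%, and 8.23 and 9.09 at 5%. The 12 normoxia arrays of PC-3 lay between 7.60 and 8.40 (median 8.02). Again all 12 pairs were higher in hypoxia, and 2 hypoxia arrays, at 2% and 5% O2, lay inside the normoxia range. The mean rise was 1.46 ± 0.11 (adjusted p = 4.2e-12), with 9.51 ± 0.68 in hypoxia and 8.04 ± 0.24 in normoxia. By level ISG20 was called at 0, 0.2, 0.5 and 1% O2 in both lines and at neither 2 nor 5%. Its log2 rise in 22Rv1 was 2.44, 1.12, 1.43 and 1.19 at those 4 levels, each ± 0.27, and in PC-3 it was 1.81, 2.12, 2.01 and 1.44, each ± 0.27. At 0.2% O2 in 22Rv1 the rise was 1.39 without both doubted arrays (adjusted p = 0.013) and 0.27 with the other labels (adjusted p = 1.0), and the call also ended under median centring (adjusted p = 0.063) and without hypoxia replicate 1 (adjusted p = 0.19). The call at 1% in PC-3 ended without hypoxia replicate 2 (1.29, adjusted p = 0.062) and without normoxia replicate 1 (1.30, adjusted p = 0.068).

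Of the 6 transcription factors 3 rose on the mean in 22Rv1 and 2 in PC-3, where 19.8% and 10.7% of all genes rose, and none fell. Both PC-3 calls ended under median centring, as given below. STAT2, the subunit that brings the activating domain to the interferon complex, stood in 22Rv1 hypoxia at 8.52 and 8.75 at 0% O2, 8.21 and 7.67 at 0.2%, 8.32 and 8.19 at 0.5%, 8.01 and 8.26 at 1%, 8.25 and 7.97 at 2%, and 8.16 and 7.67 at 5%. The normoxia arrays of 22Rv1 lay between 7.18 and 7.83 (median 7.62). STAT2 was higher in hypoxia in all 12 pairs, with 2 hypoxia arrays inside the normoxia range, and its mean rise was 0.59 ± 0.07 (adjusted p = 4.3e-08). In PC-3 STAT2 was at 8.67 to 9.03 (median 8.83) in hypoxia and 8.35 to 8.80 (median 8.56) in normoxia, so the conditions overlapped. It was higher in all 12 PC-3 pairs as well, by 0.26 ± 0.07 (adjusted p = 0.0075), a call that ended when arrays were centred on their medians (0.22, adjusted p = 0.19).

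IRF9 was higher in all 12 pairs of 22Rv1, by 0.41 ± 0.09 (adjusted p = 0.00019), and in 11 of 12 pairs of PC-3, by 0.25 ± 0.09 (adjusted p = 0.034). The PC-3 call of IRF9 ended under median centring (0.21, adjusted p = 0.32), without the 0% level (0.26, adjusted p = 0.053) and when all probes were kept (adjusted p = 0.058). IRF7, the factor that amplifies interferon transcription, stood in 22Rv1 hypoxia at 6.89 and 6.44 at 0% O2, 6.31 and 6.16 at 0.2%, 6.94 and 6.43 at 0.5%, 6.32 and 6.33 at 1%, 5.52 and 5.47 at 2%, and 5.74 and 5.73 at 5%, against 5.57 to 6.25 (median 5.89) in normoxia. Hypoxia was above its own control in the 8 pairs at 0 to 1% O2 and under it in the 4 pairs at 2 and 5%. The mean rise of IRF7 in 22Rv1 was 0.33 ± 0.08 (adjusted p = 0.00059). A second IRF7 probe, detected on no 22Rv1 array, gave 0.16 (adjusted p = 0.10).

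IRF1, a factor induced by type II interferon, was detected in 22Rv1 hypoxia on both arrays at 0% O2, at 5.84 and 5.98, and on neither of their normoxia controls, at 4.71 and 4.76. That is a rise of at least 1.66-fold at 0% O2 (adjusted p = 1.1e-05), and at the other 5 levels IRF1 was called at none in 22Rv1. In PC-3 IRF1 was detected on every array and was not called at any level. IRF2, a factor that can repress the same sites, was at least 1.21-fold higher at 0% O2 in PC-3, with 1 of 2 hypoxia arrays detected and no normoxia array (adjusted p = 0.0084), a call that ended without hypoxia replicate 2 (adjusted p = 0.21) or normoxia replicate 2 (adjusted p = 0.099). IRF3 changed by 0.04 ± 0.06 in 22Rv1 and 0.05 ± 0.06 in PC-3 and was not called.

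IFI6 was the other member with a large rise, in 22Rv1. It stood in 22Rv1 hypoxia at 7.47 and 7.04 at 0% O2, 7.02 and 6.37 at 0.2%, 7.02 and 6.73 at 0.5%, 6.31 and 6.34 at 1%, 6.16 and 5.89 at 2%, and 6.21 and 5.65 at 5%, against 4.88 to 5.93 (median 5.55) in normoxia. Every hypoxia array at 1% O2 or below lay above all normoxia arrays. The mean rise was 0.96 ± 0.13 (adjusted p = 2.3e-07, higher in 11 of 12 pairs), and by level it was 2.04 ± 0.32 at 0% O2, 1.10 ± 0.32 at 0.2% and 1.20 ± 0.32 at 0.5%. At 0% O2 1 of the 2 normoxia arrays detected IFI6. In PC-3, where IFI6 was at 8.86 to 10.13 in hypoxia and 9.03 to 10.06 in normoxia, the mean change was -0.02 ± 0.13 and was not called. A second IFI6 probe, detected on 23 arrays of 22Rv1 as the first was, changed there by 0.15 (adjusted p = 0.35), so the rise rests on 1 of 2 probes. The call at 0.5% O2 ended without background correction (0.54, adjusted p = 0.094), with the other deposited table (0.62, adjusted p = 0.061), without hypoxia replicate 1 (adjusted p = 0.079) and without normoxia replicate 1 (adjusted p = 0.083). The call at 0.2% O2 ended under both of those processing settings too and without 3 of its 4 arrays in turn, and the IFI6 rise there was 1.37 without both doubted arrays (adjusted p = 0.039) and 0.27 with the other labels (adjusted p = 1.0).

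HERC5, the main ligase that attaches ISG15 to proteins, had the deepest fall of 22Rv1. It stood in 22Rv1 hypoxia at 5.35 and 5.29 at 0% O2, 5.53 and 6.01 at 0.2%, 6.26 and 5.97 at 0.5%, 6.08 and 6.13 at 1%, 6.34 and 6.32 at 2%, and 6.65 and 6.41 at 5%, against 6.65 to 7.13 (median 6.80) in normoxia. Of the 12 hypoxia arrays 11 lay below all normoxia arrays, and the highest, at 5% O2, equalled the lowest normoxia array to 2 decimals. HERC5 fell by 0.79 ± 0.08 on the log2 scale (adjusted p = 1.3e-09), lower in all 12 pairs. By level it changed by -1.40 at 0% O2, -1.02 at 0.2%, -0.90 at 0.5% and -0.73 at 1%, each ± 0.20, and was called at these 4 levels. At 0.2% O2 the change was -1.19 without both doubted arrays (adjusted p = 0.0032) and -0.17 with the other labels (adjusted p = 1.0), and the call at 1% ended with the other labels (adjusted p = 0.079) or without any 1 of its 4 arrays. In PC-3 HERC5 was detected on 3 hypoxia and 8 normoxia arrays, and its mean change of -0.24 ± 0.08 (adjusted p = 0.03) lost its call when low probes were kept (adjusted p = 0.073), under median centring (adjusted p = 0.11), without background correction (adjusted p = 0.092) or when the 0% level was left out (adjusted p = 0.18).

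The other enzymes of ISG15 conjugation fell or were not called. ISG15 itself fell in PC-3 by 0.17 ± 0.05 (adjusted p = 0.01), lower in all 12 pairs, with 10.66 to 10.93 (median 10.81) in hypoxia and 10.83 to 11.16 (median 10.92) in normoxia. In 22Rv1 ISG15 was called at 0% O2, where it stood at 10.74 and 10.60 in hypoxia against 11.22 and 11.03 in normoxia, a change of -0.46 ± 0.12. Both ISG15 calls ended under median centring, with adjusted p = 0.23 in PC-3 and 0.20 in 22Rv1 at 0% O2. UBE2L6 fell in PC-3 by 0.35 ± 0.09 (adjusted p = 0.0042), lower in all 12 pairs, and the second UBE2L6 probe gave -0.33 there. USP18, which removes ISG15 and dampens the receptor, was detected on 2 hypoxia and 7 normoxia arrays of 22Rv1 and fell there by 0.54 ± 0.11 (adjusted p = 0.00019). HERC6 was near its detection limit in both lines, with mean changes of -0.23 ± 0.10 in 22Rv1 and -0.28 ± 0.10 in PC-3. Both HERC6 calls ended when all probes were kept (adjusted p = 0.10 in 22Rv1 and 0.062 in PC-3).

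All 3 PARP genes, mono-ADP-ribosyltransferases of the interferon response and their partner PARP9, fell in both lines on the mean. PARP9 stood in 22Rv1 hypoxia at 6.52 and 6.96 at 0% O2, 7.47 and 7.45 at 0.2%, 6.88 and 7.53 at 0.5%, 7.48 and 8.01 at 1%, 8.02 and 8.0 at 2%, and 7.84 and 7.97 at 5%, against 7.65 to 8.20 (median 7.91) in normoxia. The arrays at 0.5% O2 and below lay under the normoxia range and those at 2 and 5% inside it. PARP9 fell by 0.39 ± 0.10 in 22Rv1 (adjusted p = 0.0014, lower in 7 of 12 pairs) and by 0.42 ± 0.10 in PC-3 (adjusted p = 0.0013, lower in 10 of 12 pairs), and a second probe gave -0.49 in 22Rv1 and -0.36 in PC-3. At 0% O2 it changed by -0.99 ± 0.24 in 22Rv1 and -0.74 ± 0.24 in PC-3. The PC-3 call at 0% (adjusted p = 0.045) ended without background correction (adjusted p = 0.10), under median centring (0.12), with the other deposited table (0.089), when all probes were kept (0.073) and without any 1 of its 4 arrays (up to 0.25), and that of 22Rv1 without hypoxia replicate 1 (0.054). PARP14 stood at 5.86 and 5.92 at 0% O2 in 22Rv1 hypoxia against 7.07 and 6.98 in their controls, a change of -1.13 ± 0.16 (adjusted p = 1.3e-06). Without the 0% level the mean change of PARP14 in 22Rv1 was 0.01, against -0.18 ± 0.07 with it, so its fall there rests on that level. PARP12 fell by 0.35 ± 0.09 in 22Rv1, lower in all 12 pairs, and by 0.26 ± 0.09 in PC-3, where the call (adjusted p = 0.042) ended without the 0% level (adjusted p = 0.17), under median centring (0.075) and when all probes were kept (0.073).

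In PC-3 the immunoproteasome subunit PSMB8 was lower in hypoxia in all 12 pairs. PSMB8 stood in PC-3 hypoxia at 7.29 and 7.10 at 0% O2, 6.85 and 7.22 at 0.2%, 7.54 and 7.51 at 0.5%, 7.62 and 7.88 at 1%, 7.72 and 7.66 at 2%, and 7.72 and 7.91 at 5%, against 7.91 to 8.46 (median 8.07) in normoxia. It was the one tested member whose 12 hypoxia and 12 normoxia arrays of a line did not overlap, by a margin under 0.01 between the nearest arrays. PSMB8 fell by 0.60 ± 0.06 (adjusted p = 4.6e-09), and 2 further PSMB8 probes detected on all PC-3 arrays gave -0.57 and -0.38. By level the change was -0.75 at 0% O2, -1.08 at 0.2% and -0.80 at 0.5%, each ± 0.15 and called. PSMB9, its partner subunit, was not detected in PC-3 on the brighter probe, and a dimmer probe, detected on 2 PC-3 arrays, changed by -0.34 there (adjusted p = 0.0043 over all probes).

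SP110, a nuclear body protein, stood in PC-3 hypoxia at 5.36 and 5.13 at 0% O2, 5.41 and 5.76 at 0.2%, 5.79 and 5.93 at 0.5%, 6.27 and 6.43 at 1%, 6.75 and 6.46 at 2%, and 6.52 and 6.66 at 5%, against 6.45 to 6.90 (median 6.73) in normoxia. Every array at 1% O2 or below lay under the normoxia range and those at 2 and 5% lay in it. SP110 fell in PC-3 by 0.66 ± 0.09 (adjusted p = 1.1e-06, lower in 11 of 12 pairs), and a second probe gave -0.60. By level it changed by -1.39 at 0% O2, -1.11 at 0.2% and -0.84 at 0.5%, each ± 0.22. The call at 0.5% ended without any 1 of its 4 arrays (adjusted p up to 0.17), and that at 0.2% without hypoxia replicate 1 (0.061) or normoxia replicate 1 (0.065). In 22Rv1 SP110 was called at 0% O2 alone, at least 1.44-fold lower, with neither hypoxia array detected, a call that ended with the mean of its probes (adjusted p = 0.069) and without normoxia replicate 1 (adjusted p = 0.079). The other nuclear body genes, PML and SP100, were not called in either line on the mean.

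OAS2, which makes the oligoadenylates that activate RNase L, stood in PC-3 hypoxia at 5.93 and 6.01 at 0% O2, 5.63 and 5.34 at 0.2%, 5.64 and 6.23 at 0.5%, 6.34 and 6.54 at 1%, 6.38 and 6.51 at 2%, and 6.41 and 6.62 at 5%, against 6.24 to 6.99 (median 6.65) in normoxia. All 6 arrays at 0.5% O2 or below lay under the normoxia range. OAS2 fell in PC-3 by 0.51 ± 0.07 (adjusted p = 1.2e-06), and by level it changed by -0.67 at 0% O2, -0.88 at 0.2% and -0.75 at 0.5%, each ± 0.17. Leaving out single arrays of the level ended the OAS2 call in 4 of 4 fits at 0% O2, 2 of 4 at 0.2% and 3 of 4 at 0.5%. The OAS2 change in those fits was -0.71 to -0.64 at 0%, -1.03 to -0.74 at 0.2% and -1.04 to -0.46 at 0.5%. Its neighbours OAS1 and OAS3 were not called in PC-3, with changes of -0.03 ± 0.10 and -0.20 ± 0.09, though 1 of 3 detected OAS1 probes changed by -0.35 (adjusted p = 0.0022 over all probes).

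All 4 IFIT genes, which bind foreign RNA ends, fell in PC-3 on the mean. IFIT2 was at 6.36 to 7.38 (median 7.03) in hypoxia and 7.12 to 7.76 (median 7.40) in normoxia, and it fell by 0.44 ± 0.08 (adjusted p = 4.4e-05), lower in all 12 pairs. IFIT3 was at 5.16 to 6.02 (median 5.66) in hypoxia and 5.69 to 6.27 (median 5.87) in normoxia and fell by 0.34 ± 0.08. IFIT1 was at 6.70 to 7.71 (median 7.38) in hypoxia and 7.26 to 7.74 (median 7.51) in normoxia and fell by 0.28 ± 0.06. The conditions overlapped for all of them. At 0% O2 IFIT2 changed by -0.72 ± 0.19, IFIT3 by -0.65 ± 0.19 and IFIT1 by -0.58 ± 0.16, and IFIT5 was at least 1.23-fold lower, with neither hypoxia array detected. Each of these 4 calls at 0% O2 ended without at least 2 of the level's 4 arrays in turn. The mean change of IFIT5 was -0.27 ± 0.09 (adjusted p = 0.018), detected on 2 hypoxia and 8 normoxia arrays, and its call ended without the 0% level (-0.15, adjusted p = 0.34) and without hypoxia replicate 2 at 1% O2 (adjusted p = 0.052). IFI35 fell in both lines by 0.38 ± 0.10, lower in all 12 pairs of PC-3 and in 10 of 12 of 22Rv1. The kinase EIF2AK2, known as PKR, fell in PC-3 by 0.25 ± 0.08 (adjusted p = 0.022), a call that ended without the 0% level (adjusted p = 0.15).

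Among effectors detected in 22Rv1, MX1, a GTPase that traps viral nucleocapsids, stood at 5.19 and 5.77 in hypoxia at 0% O2 against 6.55 and 6.71 in the controls, a change of -1.15 ± 0.23 (adjusted p = 0.00017). Over the mean MX1 fell by 0.38 ± 0.09, lower in 11 of 12 pairs, and without the 0% level the change was -0.22 (adjusted p = 0.087). IFITM2 fell in 22Rv1 by 0.31 ± 0.07 and IFITM3 by 0.22 ± 0.08, and neither was called in PC-3. The IFITM3 call ended without the 0% level (-0.21, adjusted p = 0.055) and without any of 3 single arrays (adjusted p up to 0.069). At 0.5% O2 IFITM2 stood at 7.86 and 8.15 in 22Rv1 hypoxia against 8.91 and 8.58 in the controls, a change of -0.74 ± 0.16. OAS3 was called lower in 22Rv1 (adjusted p = 0.012), detected there on 1 hypoxia and 2 normoxia arrays, and the call ended without background correction (adjusted p = 0.09), with the other deposited table (0.07) and with the other labels (0.056). The sensor IFIH1, known as MDA5, was called lower in 22Rv1 (adjusted p = 0.033) with no hypoxia and 2 normoxia arrays detected, so no fold is given, and fell in PC-3 by 0.27 ± 0.09, detected on 1 hypoxia and 4 normoxia arrays. The IFIH1 calls ended without the 0% level in both lines, and that of 22Rv1 also without both doubted arrays (adjusted p = 0.067).

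**Figure D3:**
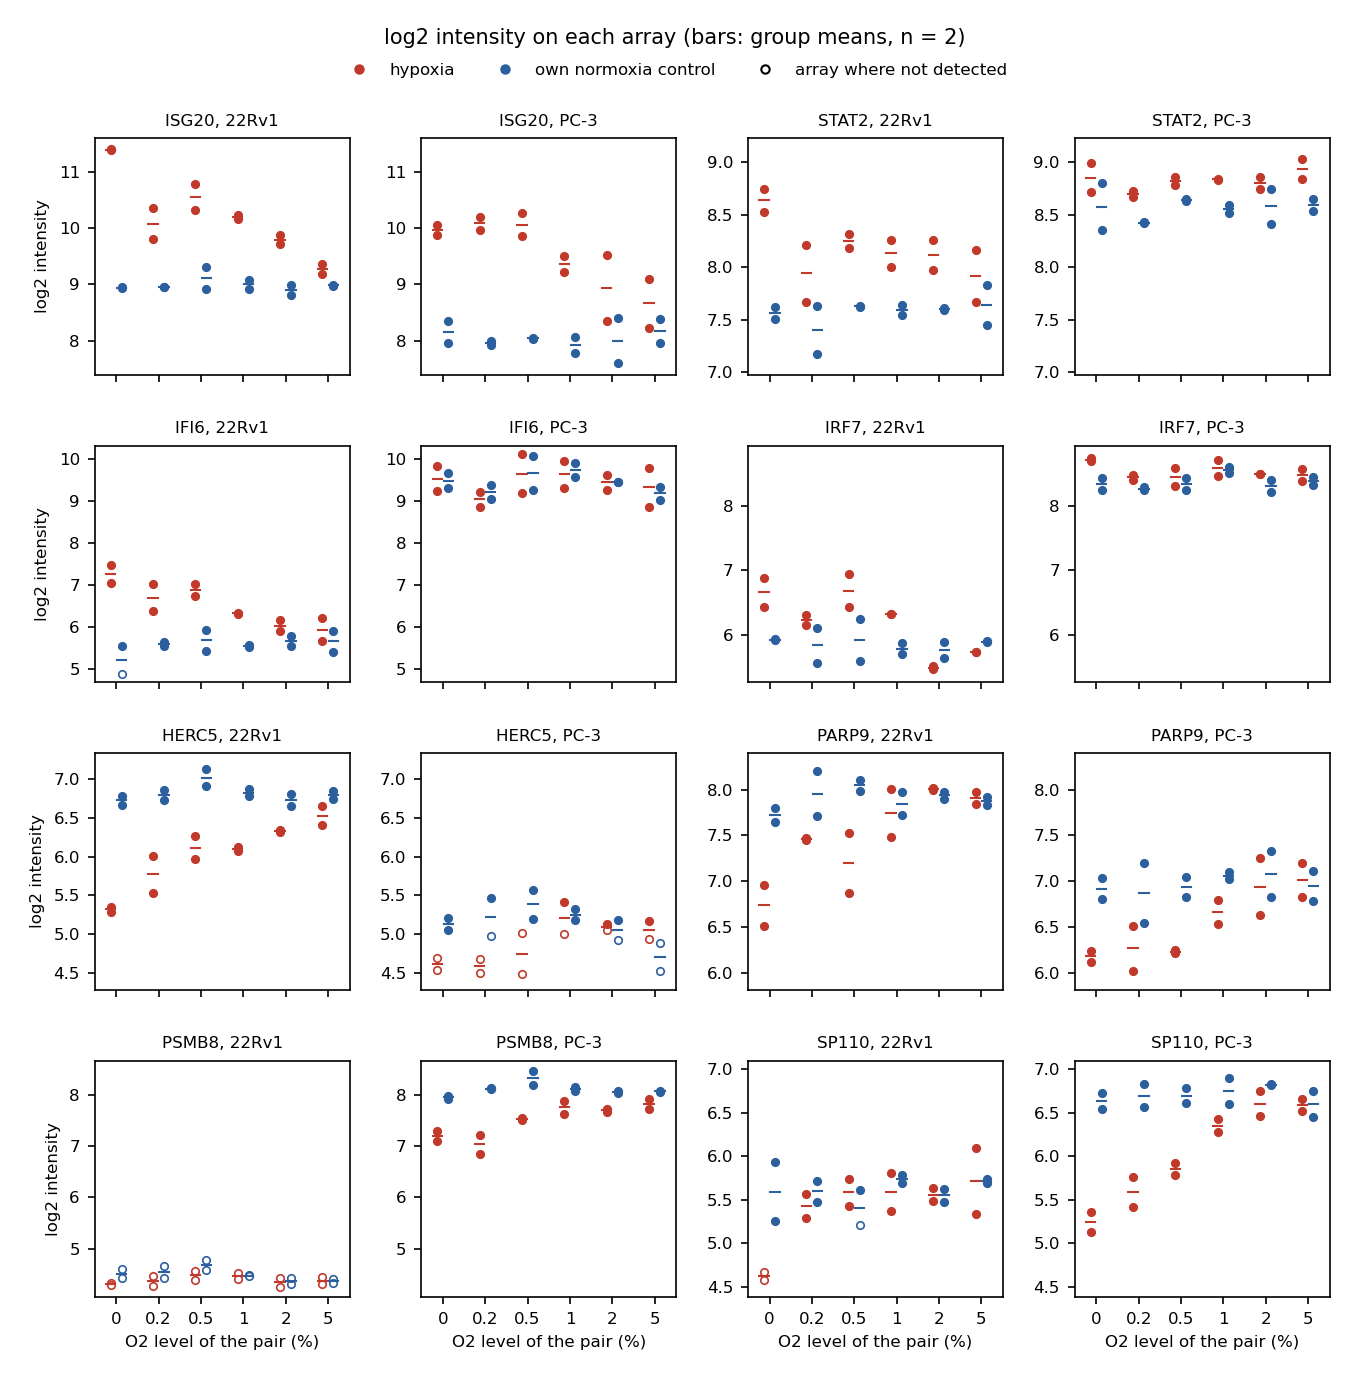
log2 normalized intensity of 8 members on each array by oxygen level, hypoxia (red) beside its own normoxia control (blue), with bars at the means of 2 arrays and open circles where the array did not detect the gene. The hypoxia arrays of ISG20 rise and those of HERC5 in 22Rv1 and SP110 in PC-3 fall toward 0% O2, while PSMB8 in 22Rv1 stays undetected.

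By oxygen level the counts of called members in 22Rv1 were 6 higher and 7 lower at 0% O2, where 13.6% and 15.5% of all genes were called higher and lower and 29.2% in either direction. At 0.2% they were 3 higher and 1 lower (5.78% and 5.18% of all genes, 11% in all), at 0.5% 5 higher and 5 lower (13% and 15%, 28.1% in all), and at 1% 2 higher and 2 lower (7.45% and 7.09%, 14.5% in all). Of the 26 members detected in 22Rv1 the 6 and 7 at 0% O2 are 23.1% and 26.9%, against 15.1% and 17.3% of genes detected there. No member was called at 2% (2.85% and 1.28%, 4.14% in all) or at 5% (0.0852% and 0.00608%, 0.0913% in all), where 5 and 0 members had an unadjusted p under 0.05. With the replicate pair as a block 7 members were called at 1% (5 higher, 2 lower) and 3 at 2% (2 higher, 1 lower). The block also called more of all genes, 3944 against 2389 at 1% and 1969 against 680 at 2%. With the other labels no member was called at 0.2%, and 0 of all genes were, against 1801 with the labels used. The STAT2 call at 0.2% (0.53 ± 0.18, adjusted p = 0.0497) ended under median centring (0.43, adjusted p = 0.47). The STAT2 change was 0.58 without both doubted arrays, which leaves a single array on each side, and 0.04 with the other labels.

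In PC-3 2 members were higher and 8 lower at 0% O2, where 4.35% and 4.51% of all genes were called higher and lower and 8.86% in either direction. At 0.2% 1 was higher and 3 lower (2.71% and 2.03%, 4.73% in all), at 0.5% 1 was higher and 4 lower (2.42% and 1.66%, 4.08% in all), and at 1% ISG20 alone was called, higher (1.16% and 0.237%, 1.4% in all). The 8 lower members at 0% O2 are 19% of 42. No member was called at 2% (0.292% and 0%) or 5% (0.00608% and 0%), where 3 and 4 had an unadjusted p under 0.05. With the replicate pair as a block the lower members numbered 9 at 0.2% and 8 at 0.5%, and 1 member was called, higher, at 2%. Of all genes the block called 1770 against 778 at 0.2%, 1642 against 670 at 0.5% and 213 against 48 at 2%. The counts at 0% in PC-3 dropped to 4 to 6 without any 1 of its 4 arrays. At 1% the ISG20 call was lost without normoxia replicate 1 or hypoxia replicate 2.

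**Figure D4:**
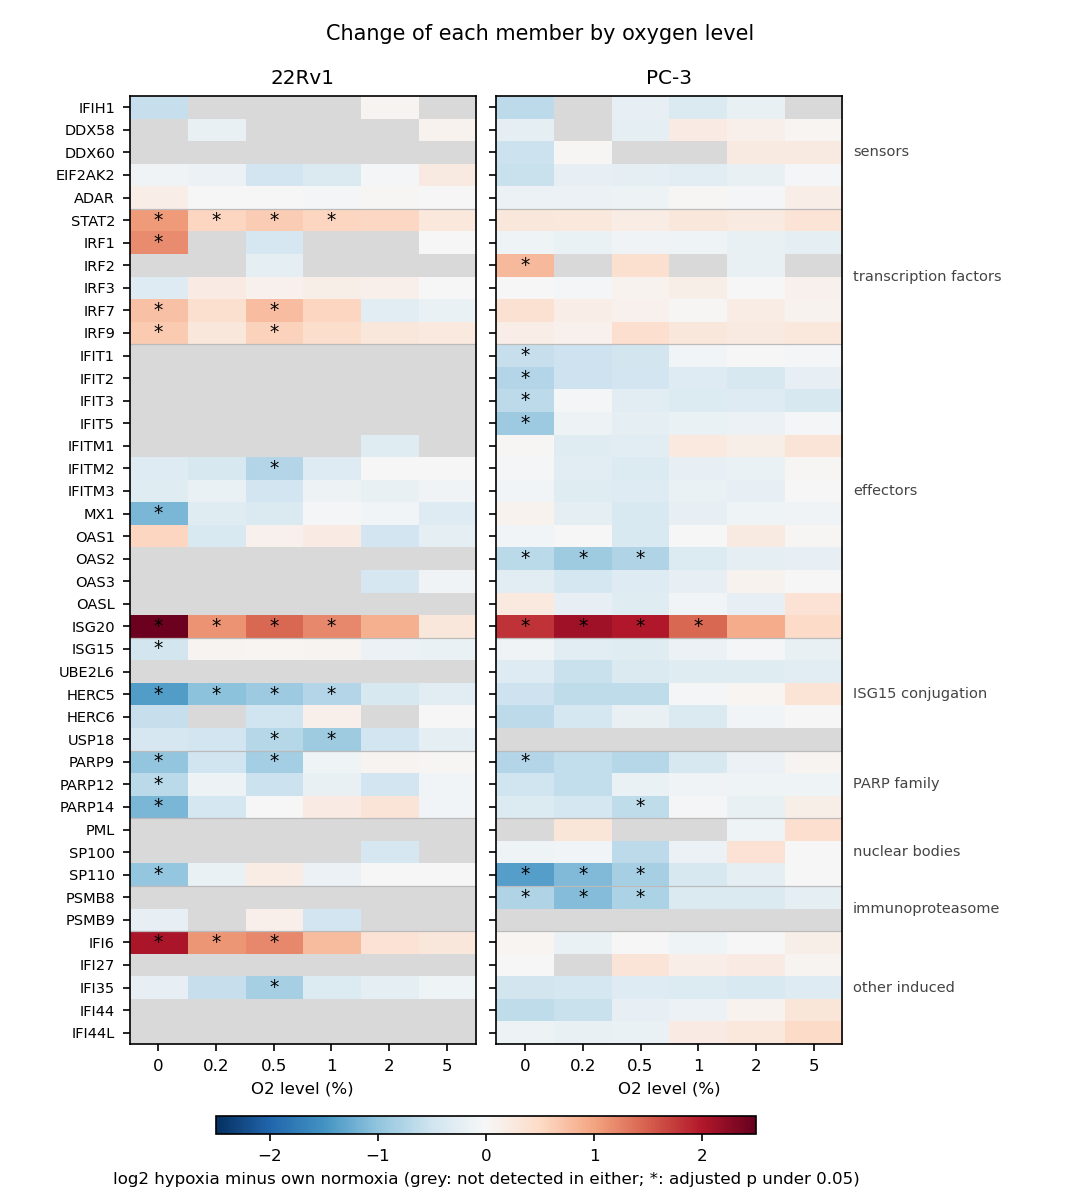
log2 change in hypoxia against own normoxia for the 42 tested members (rows, by role) at each oxygen level in 22Rv1 and PC-3, red for higher and blue for lower in hypoxia. Stars mark an adjusted p under 0.05 and grey cells have no detected array in either condition, and the stars lie at 1% O2 or below.

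A trend fitted over the 6 levels, as log2 change per step toward 0% O2 in the order 5, 2, 1, 0.5, 0.2 and 0%, was called for 7 members in 22Rv1, against 13.2% of all genes. Of these 4 were positive (against 6.64% of all genes) and 3 negative (6.58%). ISG20 had 0.33 ± 0.06 per step, IFI6 0.33 ± 0.08, IRF7 0.19 ± 0.05 and IRF1 0.18 ± 0.05, while HERC5 had -0.22 ± 0.05, PARP9 -0.22 ± 0.06 and PARP14 -0.22 ± 0.04. With the other labels the trend of HERC5 was -0.15 (adjusted p = 0.19) and that of IFI6 0.26 (adjusted p = 0.081). Median centring ended the trend calls of HERC5 (0.066), PARP9 (0.19), PARP14 (0.078) and IRF1 (0.086), each an adjusted p. Without background correction those of IRF1 (0.11) and IFI6 (0.079) ended, with the other deposited table that of IRF1 (0.081), and with the mean of its probes that of IRF7 (0.076). In PC-3 1 member was positive (0.949% of all genes) and 3 were negative (0.706%, 1.65% in all): ISG20 with 0.31 ± 0.06, SP110 with -0.29 ± 0.05, HERC5 with -0.20 ± 0.05 and PSMB8 with -0.15 ± 0.04. The PC-3 calls of HERC5 and PSMB8 ended when all probes were kept (adjusted p = 0.06 and 0.077), and that of ISG20 under median centring (0.23, adjusted p = 0.09) and without hypoxia replicate 1 at 5% O2 (0.25, adjusted p = 0.076). The replicate block called 8 trend members in PC-3, and 897 of all genes against 272 without it. An F-test of whether the hypoxia effect was equal at the 6 levels called 6 members in 22Rv1 (14% of all genes), namely IRF1, IRF7, ISG20, HERC5, PARP14 and IFI6, and none in PC-3 (0.183%), where 10 had an unadjusted p under 0.05. With the replicate block this test called 13 members in 22Rv1 and 2 in PC-3, and 4376 and 170 of all genes against 2300 and 30 without it. The 6 normoxia groups of each line did not differ for any member in limma's F-test (0% of all genes in either line), with 2 members of 22Rv1 and 1 of PC-3 at an unadjusted p under 0.05.

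The difference of the mean effect between the lines, 22Rv1 minus PC-3, was called for 9 of 42 members, 7 positive (against 11.2% of all genes) and 2 negative (11.5%). IFI6 differed most, by 0.98 ± 0.18 (adjusted p = 0.00014), and STAT2 rose more in 22Rv1, by 0.33 ± 0.10 (adjusted p = 0.018). HERC5 fell more in 22Rv1, the difference being -0.55 ± 0.12 (adjusted p = 0.00059). In PC-3 HERC5 was near the detection limit, on 3 of 12 hypoxia and 8 of 12 normoxia arrays, so a fall as deep could not have been read there. SP110 differed by 0.47 ± 0.13, falling on the mean in PC-3. With the other labels the HERC5 difference was -0.41 (adjusted p = 0.07) and that of STAT2 0.25 (adjusted p = 0.16), and both kept their calls without both doubted arrays. The STAT2 call also ended under median centring (0.27, adjusted p = 0.29) and without the 0% level (0.24, adjusted p = 0.16). The remaining 5 rest on genes that 1 line did not detect: PSMB8 (0.50), OAS2 (0.50), IFIT2 (0.43) and IFIT1 (0.25) were on no array of 22Rv1, and USP18 (-0.44) was on none of PC-3, so a change there could not have been measured. The IFIT1 and USP18 calls ended when all probes were kept (adjusted p = 0.12 and 0.066). ISG20 was not called, its mean rise being 1.23 ± 0.11 in 22Rv1 and 1.46 ± 0.11 in PC-3.

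Members that were detected throughout and did not pass the test in either line were few. ADAR, on all 48 arrays, changed by 0.03 ± 0.05 in 22Rv1 and -0.04 ± 0.05 in PC-3, and IRF3 is given above. IFI44 and IFI44L, on every PC-3 array, changed there by -0.19 ± 0.09 and 0.08 ± 0.08. IFITM1 changed by 0.03 ± 0.15 in PC-3, and OAS1 by -0.04 ± 0.10 in 22Rv1. DDX58 (now RIGI), DDX60, IFI27, OASL and PML were on some or no arrays of each line and were not called on the mean.

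Windows with the double GAAA motif were present for 2 of the 4 members that rose in 22Rv1 and had a window, and for 8 of the 10 that fell there. Of those not called in 22Rv1 11 of 19 had it. In PC-3 they were present for 1 of 3 that rose and 11 of 15 that fell, and for 9 of 15 that were not called. ACGTG was present for 3 of the 4 that rose and 1 of the 10 that fell in 22Rv1, and for 2 of 3 and 4 of 15 in PC-3. Of the members not called 7 of 19 had ACGTG in 22Rv1 and 5 of 15 in PC-3. Of all genes with a window 4.38% had the double GAAA motif and 24.87% had ACGTG. These counts are small and are given without a test.

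A list of other pathway genes, 33 symbols with old and current names counted apart, had 21 tested. The interferon ligands on it (IFNB1, IFNA1, IFNG, IL28A, IL28B and IL29) were detected on no array. In 22Rv1 8 of the 21 rose and 5 fell on the mean (19.8% and 22.8% of all genes), with a median change of 0.03, and in PC-3 none rose and 1 fell (10.7% and 13.3%), with a median of -0.03. The receptor chains and kinases of 22Rv1 moved in both directions: TYK2 rose by 0.58 ± 0.05 (adjusted p = 3.4e-11), IFNGR1 by 0.41 ± 0.06, IL10RB by 0.36 ± 0.07 and IFNGR2 by 0.28 ± 0.04. IFNAR2, a chain of the type I receptor, fell in 22Rv1 by 0.57 ± 0.07 (adjusted p = 1.6e-07), with 7 of 12 hypoxia and 12 of 12 normoxia arrays detected. Of the known brakes the phosphatase PTPN6 rose by 0.70 ± 0.09, PIAS1 rose by 0.21 ± 0.07 and the phosphatase PTPN2 fell by 0.34 ± 0.07. Of the sensing genes TBK1 rose by 0.25 ± 0.05, and DHX58 was called higher (adjusted p = 0.0082) with 3 hypoxia arrays and no normoxia array detected. TRIM25 fell by 0.43 ± 0.06, ZC3HAV1 by 0.42 ± 0.06 and VISA (now MAVS) by 0.29 ± 0.08, and ZC3HAV1 was the one that fell in PC-3, by 0.19 ± 0.06.

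In normoxia all 21 of these pathway genes differed between the lines, 7 higher and 14 lower in 22Rv1, where 71.8% of all genes differed, 39.3% higher and 32.5% lower. The lower ones include genes, named next, that PC-3 expressed and no normoxia array of 22Rv1 detected. A count of pathway genes detected in both lines was not made. JAK1 was detected on no normoxia array of 22Rv1 and on all 12 of PC-3, at least 6.27-fold lower in 22Rv1. The same held for TMEM173 (now STING1), at least 3.75-fold lower in 22Rv1, C6orf150 (now CGAS), at least 1.54-fold, and SOCS3, at least 1.44-fold. IFNGR2 differed by -1.44 and MYD88 by -1.41, while PTPN6 was higher in 22Rv1 by 1.29 and IFNGR1 by 1.06.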

How the data were processed

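Total RNA of PC-3 and 22Rv1 was hybridised as biotin-labelled cRNA to Illumina bead arrays, 48 arrays in 24 groups of 2. The authors deposited bead intensities per probe, not normalized, with a detection p-value per probe, and per the submitters' processing notes the software was BeadStudio 3.1.3.0. A second deposited matrix holds processed intensities of the same arrays, which were put on the log2 scale here and served as an alternative. Its normalization and the array design are not given in the sources used. The letter ending each column name was read as the replicate number.

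Intensities were background-corrected and quantile-normalized with neqc (offset 16) in limma 3.58.1 under R 4.3.3, with the data.table package at version 1.17.8. Probes with a detection p under 0.01 on at least 2 arrays were kept, and the brightest per symbol stood for its gene, leaving 16438 genes. All 24 group means were fitted together (24 residual degrees of freedom, empirical Bayes), and p-values were adjusted over all genes by Benjamini-Hochberg at 0.05. The mean effect averages the 6 levels with equal weight. A bound ("at least N-fold") is given where one side was detected on no array. Figures and sequence counts used Python 3.11.15, pandas 2.3.3 and matplotlib 3.10.9, and the fit was tested on simulated data.

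The effects, standard errors and p-values reported come from the fit of group means, which ignores pairs, unless the block is named. Hypoxia and normoxia arrays of the same line, level and number were compared as pairs only for the counts of pairs and for the block. Their deviations from the group means correlated at 0.180 to 0.447 in 22Rv1 and 0.326 to 0.471 in PC-3, with means of 0.286 and 0.397, against 0.156 and 0.316 with the controls of other levels. Every pair being over 0.1, the numbers were taken to pair the arrays, and blocked counts are given where they move a count by over 1.5 times. That cut does not show pairing within a level, because controls of other levels were over it too (0.115 to 0.215 in 22Rv1, 0.267 to 0.355 in PC-3). Own controls correlated more at every level, by little at some (0.343 against 0.315 in PC-3 at 5% O2). The members with the strongest calls each way were named (10 per line on the mean, 4 per level, 5 for the trend, 8 between lines), others by levels, counts or ranges, and pathway genes where called on a mean. Some marker genes are not reported here. The members and lists were chosen with earlier results of these data known.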

Additional observations from a re-analysis of the deposited data

Results flagged for a closer look

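The hypoxia effect, as the mean over the 6 oxygen levels, differed between the lines for 9 of the 42 tested members by the interaction contrast in limma. That is 21.4% of the members, near the 22.7% of all genes tested. As 22Rv1 minus PC-3 on the log2 scale, the difference was 0.98 ± 0.18 for IFI6, which rose in 22Rv1 and had a PC-3 change of -0.02 ± 0.13, and 0.33 ± 0.10 for STAT2, which rose in both lines and more in 22Rv1. The STAT2 call ended under median centring (0.27, adjusted p = 0.29), with the other labels (0.25, adjusted p = 0.16) and without the 0% level (0.24, adjusted p = 0.16). The difference was -0.55 ± 0.12 for HERC5, which fell more in 22Rv1 and was near the detection limit in PC-3. With the other labels the HERC5 call ended (-0.41, adjusted p = 0.07). For SP110, which fell in PC-3, the difference was 0.47 ± 0.13. It was 0.50 ± 0.09 for PSMB8, 0.50 ± 0.10 for OAS2, 0.43 ± 0.11 for IFIT2 and 0.25 ± 0.09 for IFIT1, whose probes were detected on no 22Rv1 array. USP18, detected on no PC-3 array, had -0.44 ± 0.16. Groups of 2 arrays were too small for a test of single outlying arrays.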

How the results depend on the processing

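Of 223 counts of called members under the alternatives, 196 stayed within 1.5 times the count reported and 27 did not. Of 144 named results, 78 kept their direction and call under every alternative, leave-one-out fits included. One reversed: PARP14 in 22Rv1 changed by 0.0061 without the 0% level. Without that level 13 members were called on the PC-3 mean (2 higher, 11 lower), with 2805 of all genes called against 3946. Causes of these moves were not tested.

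With the replicate pair as a block the counts were 10 at 0.2%, 9 at 0.5% and 1 at 2% O2 in PC-3, 7 at 1% and 3 at 2% in 22Rv1, and 8 for the PC-3 trend, while unequal levels were called for 2 members in PC-3 and 13 in 22Rv1. Counts over all genes rose with the block in each of these, as given above. The block changed no call of the 108 named results fitted with it. No paired analysis was made for the lines in normoxia or for differences among controls, since the block was fitted within a line and level.

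Median centring gave 9 at 0.5% in PC-3 (1 higher, 8 lower), 1 at 0.2% in 22Rv1 (0 higher, 1 lower), 3 for the 22Rv1 trend (3 higher, 0 lower), 2 for unequal levels in 22Rv1, and splits of 0 higher and 6 lower for the PC-3 trend, 3 and 5 at 0.5% and 1 and 2 at 1% in 22Rv1. Under it the median of all genes was -0.29 at 0.5%, 0.10 at 2% and 0.21 at 5% in PC-3, and -0.20 at 5% in 22Rv1, a move of over 0.1 at each. Of all genes median centring called 884 against 670 at 0.5% in PC-3. In 22Rv1 it called 638 against 1801 at 0.2%, 784 against 2174 for the trend and 787 against 2300 for unequal levels. Without background correction, and likewise with the other deposited table, 2 members were called at 0.2% (1 higher, 1 lower) and 1 at 2% in 22Rv1, and the line difference split 8 positive and 1 negative. Without background correction the 22Rv1 trend split 2 and 3, and 1 member had unequal levels in PC-3. Keeping all probes left 2 in the PC-3 trend, and a filter of 12 arrays gave 1 at 2% in 22Rv1. Array weights gave 7 for the PC-3 trend, 1 for unequal levels in PC-3, and 1 at 0.2% and 6 at 0.5% in 22Rv1. Of all genes they called 648 against 272 for the PC-3 trend and 92 against 30 for unequal levels in PC-3. In 22Rv1 they called 584 against 1801 at 0.2% and 3019 against 4611 at 0.5%. With the other labels 0 of all genes were called at 0.2% in 22Rv1, against 1801, and 1706 at 1%, against 2389. The other labels gave 0 at 0.2% and 2 at 1% in 22Rv1, and leaving out both doubted arrays, chosen after seeing the data, gave 1 at 2%.

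Leaving out each array in turn gave, in PC-3, 16 to 20 members on the mean, 4 to 6 at 0%, 2 to 5 at 0.2%, 1 to 4 at 0.5%, 0 to 1 at 1% and at 2%, 0 to 0 at 5%, 2 to 5 for the trend and 0 to 1 for unequal levels. In 22Rv1 it gave 15 to 18 on the mean, 10 to 13 at 0%, 0 to 5 at 0.2%, 3 to 10 at 0.5%, 1 to 3 at 1%, 0 to 0 at 2% and 5%, 7 to 9 for the trend and 4 to 9 for unequal levels. The line difference gave 7 to 10, normoxia 34 to 37 and the controls 0 to 0. Counts moved by over 1.5 times in PC-3 without any array at 0%, normoxia replicate 1 at 0.2% (2), either normoxia array at 0.5% (2 without replicate 1, 1 without replicate 2), hypoxia replicate 2 there (3), normoxia replicate 1 or hypoxia replicate 2 at 1% (0 each) and hypoxia replicate 1 at 2% (1). The PC-3 trend fell to 2 without hypoxia replicate 2 at 0% or 5%, normoxia replicate 2 at 0% or normoxia replicate 1 at 0.2%, and unequal levels rose to 1 without hypoxia replicate 2 at 2%. In 22Rv1 they moved without hypoxia replicate 1 at 0.2% (0), hypoxia replicate 1 (3) or normoxia replicate 2 (6) at 0.5%, and at 1% either normoxia array (2 each) or hypoxia replicate 2 (1). Genes near the detection limit have a compressed range, which limits how small a level can be read.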
